A study of Danio rerio with 12 samples.

Results

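Vitellogenins are the yolk precursor proteins of egg-laying vertebrates, and estrogen receptors are the transcription factors that switch their genes on. Of 10 zebrafish genes named for this description (vtg1 to vtg7, esr1, esr2a and esr2b), 9 were found by gene symbol among the 14781 genes counted, 6 vitellogenins and all 3 nuclear estrogen receptors. The remaining gene, vtg3, was not analysed here. Transcripts were counted by RNA sequencing in 12 whole-kidney libraries of adult EK strain zebrafish, all labelled male and 4 to 12 months old. The 4 groups of 3 libraries each were wild-type and homozygous knockout fish of cebpd (cebpd WT and cebpd KO) and wild-type and homozygous knockout fish of CEN (CEN WT and CEN KO). Every group shared the same injury. Cardiomyocytes were ablated with 0.5 to 0.7 µM tamoxifen for 17 h, and tissue was taken 7 days after the incubation. The series asked what the transcription factor Cebpd regulates in the kidney while the heart regenerates. There were no uninjured and no tamoxifen-free fish in these groups, so the values compare genotypes among tamoxifen-treated males, and effects of tamoxifen and of injury cannot be told apart. The labels do not say what drives the ablation, what CEN is, which part of cebpd was altered, or whether a library held 1 fish. The p-values therefore measure the spread between libraries, which may be technical.

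In female fish the ovary releases estradiol, which binds Esr1 in liver cells, and the liver answers by making large amounts of vitellogenin that travels in the blood to the growing oocytes. The liver of males carries the same genes, which are nearly silent until an estrogenic compound reaches it, and vitellogenin in males is therefore a common marker of estrogen exposure in fish. Tamoxifen binds estrogen receptors and acts as an agonist or as an antagonist depending on the tissue. Nephrons, marrow and steroid-making interrenal cells lie together in the kidney of adult fish, which is not known as a main source of yolk proteins.

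Gene counts were 15793475 to 18104535 per library, so that 3 reads, the limit used here for a gene not detected, corresponded to 0.157 to 0.199 CPM (read counts relative to the library's total, scaled for composition). These limits and the intervals below cover counting error only. The cebpd transcript stood at 4.03 to 12.9 CPM in cebpd KO against 316 to 466 CPM in its wild types, and at 67.9 to 77.9 CPM in CEN KO against 212 to 333 CPM in CEN WT. Of 24 markers of kidney tubules, podocytes and marrow, 18 were among the genes counted, and all 18 had reads in all 12 libraries. Their summed levels were 20900 to 37530 CPM, of which 1 gene alone gave up to 26110 CPM. Apart from this, libraries stood apart in other tissues' transcripts. CEN KO replicate 2 was high in vitellogenin and liver transcripts, and CEN KO replicate 1, and to a lesser degree cebpd KO replicate 1, in egg transcripts. Fitted differences that rest on them are mostly given with and without them in edgeR's test. DESeq2 and limma-voom were run on all 12 libraries only. In whole kidneys, more cells of a type and more RNA per cell cannot be told apart.

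The vitellogenin transcripts were dominated by 1 library. In CEN KO replicate 2 there were 221924 vitellogenin reads, which made up 1.30% of its gene counts (exact binomial 95% interval 1.295 to 1.306%). The other 11 libraries held 427 to 3861 such reads, or 0.00246 to 0.0222% of their gene counts. All 6 vitellogenins were highest in CEN KO replicate 2, by factors of 19.7 to 162 over the next library. Among all 11840 genes tested, 7.44% were highest in that library. The 6 genes belong to 1 gene family, and their likeness in sequence was not computed. The sources used here do not say how reads shared between them were counted. Values of single vitellogenins are therefore less certain than their sum.

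The type I yolk precursor gene vtg1 stood at 0.0562, 1.01 and 0.305 CPM in cebpd WT replicates 1 to 3 and at 0.433, 0.430 and 0.398 CPM in cebpd KO. It stood at 88.1, 0.575 and 16.9 CPM in CEN WT, and at 2.05, 5341 and 3.40 CPM in CEN KO. The cebpd libraries therefore lay near the limit of detection, whereas CEN WT replicates 1 and 3 and CEN KO replicate 2 stood well above it and the remaining 3 CEN libraries lay between 0.575 and 3.40 CPM. CEN KO replicate 2 exceeded the next library, CEN WT replicate 1, by 60.7-fold. The CEN KO and CEN WT groups overlapped.

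The genes vtg2, vtg4 and vtg7 followed the same order of libraries at the top. In CEN WT, vtg2 was at 19.9, 0.262 and 4.24 CPM, and in CEN KO at 0.832, 1528 and 0.485 CPM. In the 6 cebpd libraries vtg2 had 0 to 6 reads, with 0 reads in cebpd WT replicates 1 and 3 and in cebpd KO replicate 3. For vtg4, CEN WT had 15.9, 0.209 and 3.17 CPM, CEN KO had 0.444, 1461 and 1.03 CPM, and the cebpd libraries had 0 to 7 reads. Both genes reached 10 reads in CEN libraries only. The vtg7 transcript stood at 10.8, 0.680 and 6.45 CPM in CEN WT and at 1.11, 1738 and 1.09 CPM in CEN KO. In the cebpd libraries vtg7 ran from 0.281 to 0.680 CPM. All CEN WT libraries lay above all cebpd WT libraries, as for 22.8% of all genes tested. The highest library, again CEN KO replicate 2, exceeded the next 76.9-fold for vtg2, 91.7-fold for vtg4 and 162-fold for vtg7.

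The genes vtg5 and vtg6 were detected in every library and behaved differently. The vtg5 transcript was at 65.9, 79.4 and 73.9 CPM in cebpd WT and at 31.7, 74.0 and 23.0 CPM in cebpd KO. It was at 32.6, 7.27 and 34.9 CPM in CEN WT and at 36.7, 1676 and 85.2 CPM in CEN KO. All CEN WT libraries lay below all cebpd WT libraries, as for 23.6% of all genes tested. With a narrow gap they also lay below all CEN KO libraries, as for 9.63%. The vtg6 transcript was at 13.2, 27.9 and 9.75 CPM in cebpd WT, at 36.1, 28.3 and 22.2 CPM in cebpd KO, at 44.8, 13.3 and 44.8 CPM in CEN WT and at 15.4, 1103 and 6.98 CPM in CEN KO. Its groups overlapped in every comparison. After CEN KO replicate 2, vtg6 was highest in CEN WT replicates 1 and 3, as were vtg1, vtg2, vtg4 and vtg7. Without CEN KO replicate 2 the other 11 libraries spanned 11.7-fold for vtg5 and 6.43-fold for vtg6, against 38.3-fold for vtg7. For vtg1 no span is given, since cebpd WT replicate 1 had 1 read of it, under the limit of 3 reads.

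**Figure D1:**
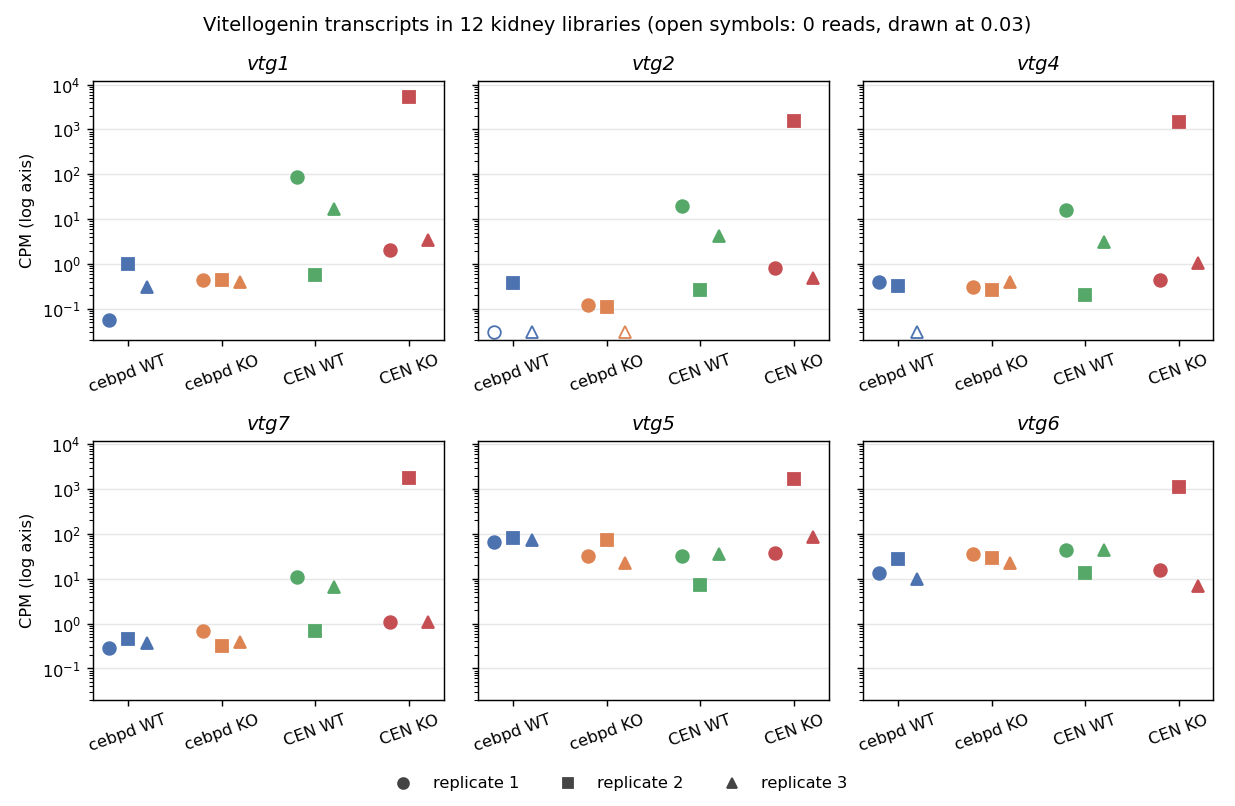
Levels of the 6 vitellogenin transcripts in CPM on a log axis, 1 symbol per library, by group (shape gives the replicate number, open symbols are libraries with 0 reads drawn at 0.03). CEN KO replicate 2 lies at 1103 to 5341 CPM. For vtg1, vtg2, vtg4, vtg6 and vtg7, CEN WT replicates 1 and 3 are the next highest. In the other 11 libraries vtg5 and vtg6 lie between 6.98 and 85.2 CPM.

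The make-up of the vitellogenin reads separated the same libraries. In the 6 cebpd libraries vtg5 and vtg6 together made up 97.4 to 99.2% of vitellogenin reads. They made up 92.3% in CEN WT replicate 2, 92.2% in CEN KO replicate 1 and 93.9% in CEN KO replicate 3. The shares were 72.2% in CEN WT replicate 3, 36.5% in CEN WT replicate 1 and 21.6% (exact interval 21.5 to 21.8%) in CEN KO replicate 2. In CEN KO replicate 2, vtg1 took 41.6% of vitellogenin reads, vtg7 13.5%, vtg5 13.05%, vtg2 11.9%, vtg4 11.4% and vtg6 8.58%. In CEN WT replicate 1, vtg1 took 41.5%, vtg6 21.1%, vtg5 15.4%, vtg2 9.38%, vtg4 7.51% and vtg7 5.08%. The share of vtg1 was thus alike in both libraries, although the first held 57.5 times as many vitellogenin reads. These are shares of reads, not of transcripts, because gene lengths were not used.

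**Figure D2:**
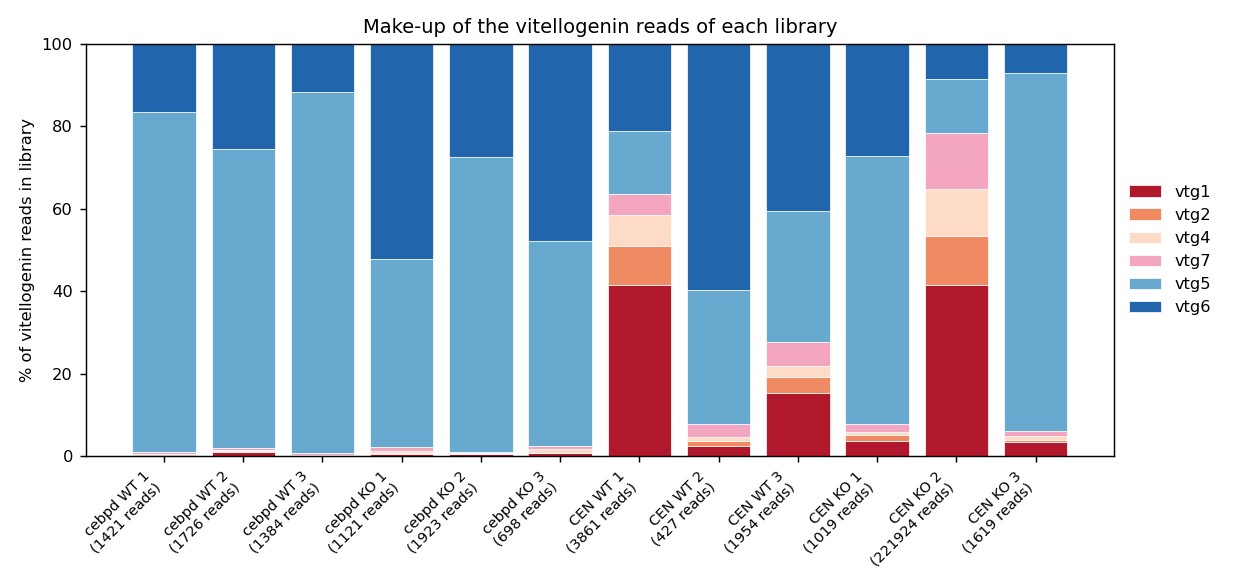
Share of each vitellogenin among the vitellogenin reads of each library, in percent, with the number of such reads under the library name. In 9 libraries vtg5 and vtg6 (blue) make up over 92% of the reads, and in CEN WT replicates 1 and 3 and CEN KO replicate 2 they make up 36.5, 72.2 and 21.6%, the rest being reads of vtg1, vtg2, vtg4 and vtg7 (warm colours).

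The proportions between vtg1 and other vitellogenins were compared within the 3 libraries that held many reads of them. Reads of vtg2 per read of vtg1 were 0.226 (exact 95% interval 0.201 to 0.253) in CEN WT replicate 1, 0.252 (0.193 to 0.325) in CEN WT replicate 3 and 0.286 (0.282 to 0.290) in CEN KO replicate 2. The vtg2 ratio of CEN WT replicate 3 had an interval that covered both other ratios, and those of CEN WT replicate 1 and CEN KO replicate 2 had intervals apart from each other. Reads of vtg4 per read of vtg1 were 0.181 (0.159 to 0.205) in CEN WT replicate 1, 0.188 (0.139 to 0.251) in CEN WT replicate 3 and 0.2735 (0.270 to 0.277) in CEN KO replicate 2, so that both CEN WT libraries lay below CEN KO replicate 2 beyond counting error. Reads of vtg7 per read of vtg1 were 0.122 (0.105 to 0.142) in CEN WT replicate 1, 0.383 (0.306 to 0.476) in CEN WT replicate 3 and 0.325 (0.321 to 0.330) in CEN KO replicate 2. Here CEN WT replicate 1 lay below the other 2 libraries beyond counting error. Reads of vtg6 per read of vtg1 differed more widely, at 0.509 in CEN WT replicate 1, 2.66 in CEN WT replicate 3 and 0.206 in CEN KO replicate 2.

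Liver transcripts were high in the same CEN KO library. Over 33 genes of plasma proteins and lipoproteins that fish liver makes, summed levels were 717 to 845 CPM in cebpd WT, 743 to 1228 CPM in cebpd KO, 784 to 867 CPM in CEN WT, and 827, 2259 and 957 CPM in CEN KO replicates 1 to 3. Of the 28 liver genes tested, 23 (82.1%) were highest in CEN KO replicate 2. All 33 liver genes had reads in that library, as they did in cebpd KO replicate 1, CEN WT replicate 1 and CEN KO replicate 3, while 1 was at 0 in each of the other 3 CEN libraries and 4 to 6 in each of the other 5 cebpd libraries. The fibrinogen chain gene fga stood at 43.4 CPM there, at 6.12 CPM in cebpd KO replicate 1 and at 0 to 1.37 CPM elsewhere. The protease inhibitor precursor gene ambp stood at 24.6 CPM there and at 0 to 0.865 CPM elsewhere, and the heme-binding plasma protein gene hpx at 14.1 CPM there and at 0 to 1.42 CPM elsewhere. Other liver genes stood out less or not at all in CEN KO replicate 2. There fabp10a was at 335 CPM against 310 CPM in CEN WT replicate 2, and cp at 108 CPM against 160 CPM in that wild-type library. The apoa2 transcript was at 148 CPM in CEN KO replicate 2 against 536 CPM in cebpd KO replicate 3. The part of liver RNA in the vitellogenin values was not tested.

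Reads of vtg1 and of the liver gene fga did not keep 1 ratio. Reads of vtg1 per read of fga were 123 (exact 95% interval 114 to 132) in CEN KO replicate 2, 64.2 (43.3 to 99.5) in CEN WT replicate 1 and 17.5 (10.8 to 30.5) in CEN WT replicate 3. In cebpd KO replicate 1, which had 99 fga reads, the ratio was 0.0707 (0.0277 to 0.151). That library therefore had more fga reads than either of the CEN WT libraries, with 25 and 17, and 7 reads of vtg1 against their 1604 and 298. Other liver genes went either way between cebpd KO replicate 1 and CEN WT replicates 1 and 3. It was higher in hpx (1.42 against 0.165 and 0.565 CPM) and apoa2 (372 against 11.5 and 20.8 CPM). It was lower in apoa1b (8.84 against 15.4 and 20.4 CPM) and fabp10a (48.8 against 277 and 162.5 CPM).

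Egg transcripts had another order of libraries. The 15 egg and ovary markers summed to 2.47 to 3.53 CPM in cebpd WT, to 65.5, 5.27 and 7.17 CPM in cebpd KO, 12.2, 2.67 and 7.24 CPM in CEN WT, and 1235, 16.9 and 21.2 CPM in CEN KO. CEN KO replicate 1 was highest for 10 of the 10 egg genes tested, against 6.78% of all genes. The egg coat gene zp2.1 stood at 184 CPM in it, at 3.07 CPM in CEN KO replicate 2 and at 0 in all 3 cebpd WT libraries, and 2 of the 15 markers were at 0 in CEN KO replicate 2. Vitellogenins were not high in the library with most egg transcripts, where vtg1 stood at 2.05 CPM and all vitellogenins together at 0.00593% of gene counts. The labels call all fish male, and the source of the egg transcripts was not tested. Testis and germ cell markers summed to 60.3 to 98.6 CPM over the 12 libraries.

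**Figure D3:**
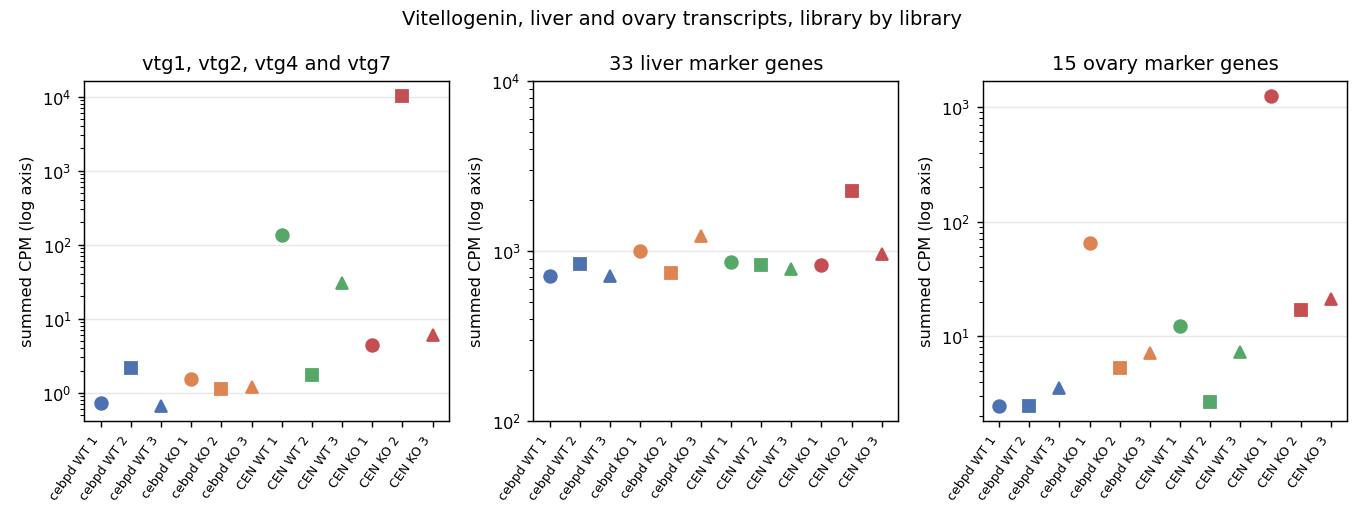
Summed CPM on log axes for vtg1, vtg2, vtg4 and vtg7 (left), 33 liver genes (middle) and 15 egg and ovary genes (right), 1 symbol per library, coloured by group. CEN KO replicate 2 is highest in the left and middle panels, at 10070 and 2259 CPM, whereas CEN KO replicate 1 is highest in the right panel, at 1235 CPM.

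Neither knockout gave a vitellogenin difference that passed edgeR's test. In the comparison of cebpd KO with cebpd WT, none of the 9 genes passed an adjusted p of 0.05 in edgeR's quasi-likelihood test, where 0.0845% of all genes did. The log2 fold changes were -0.77 ± 1.06 (SE) for vtg5, with an adjusted p of 0.819, and 0.77 ± 1.30 (SE) for vtg6, with an adjusted p of 0.859 in edgeR's test. For vtg1, vtg2, vtg4 and vtg7 the log2 fold changes were -0.08, -0.55, 0.41 and 0.35, with SEs of 3.8, 6.58, 4.26 and 3.47. Without CEN KO replicate 2, which is in neither cebpd group, the fold changes were nearly the same and the SEs fell to 1.70, 2.24, 1.49 and 0.915 for these 4 genes, to 0.548 for vtg5 and to 0.495 for vtg6, and none passed in edgeR's test (adjusted p of 0.588 to 0.994). At an unadjusted p under 0.05, edgeR's test held 1 of the 9 genes, esr2b, against 13.4% of all genes, and limma-voom, which called 0.0845% of all genes, called none of them. DESeq2 called 3.40% of all genes, gave no p for vtg1, vtg2, vtg4, vtg6 and vtg7, and called none of the 4 others.

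For CEN KO against CEN WT all 9 genes again missed the threshold, at 0.00845% of all genes called. The fitted differences followed CEN KO replicate 2. With it, vtg1 differed by 5.66 ± 2.29 (SE) on the log2 scale, and without it by -3.69 ± 1.38 (SE), at adjusted p-values of 0.435 and 0.465 in edgeR's test. The sign also turned for vtg2 (5.97 with it and -3.60 without), vtg4 (6.25 and -3.12), vtg6 (3.45 and -1.61) and vtg7 (6.61 and -2.43). Only vtg5 among the vitellogenins kept its sign, at 4.59 ± 1.22 (SE) with that library and 1.29 ± 0.60 (SE) without it, with adjusted p-values of 0.236 and 0.648 in edgeR's test. With limma-voom, which fits log values, the difference of vtg1 was 1.85 in place of 5.66, at an adjusted p of 0.889, and none of the 9 genes was among the 0.0422% of all genes called. Unadjusted p-values under 0.05 were found for 7 of the 9 genes in edgeR's test, against 9.86% of all genes. DESeq2 called vtg5 (log2 fold change 4.604, adjusted p of 0.0119), where it called 1.17% of all genes, and gave no p for the other 5 vitellogenins. It was not run without CEN KO replicate 2. Groups without overlap were seen for vtg5 and esr1, both higher in CEN KO, and for 9.63% of all genes in that direction.

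Between the wild types, vtg1, vtg2, vtg4 and vtg7 had higher values in CEN WT, and whether they passed the test turned on CEN KO replicate 2. In the fit on all 12 libraries none of the 9 genes was called between CEN WT and cebpd WT, where 25.0% of all genes were. There the vtg1 difference was 6.28 ± 2.75 (SE) on the log2 scale, and its adjusted p in edgeR's test was 0.115. Without CEN KO replicate 2, which is in neither group but adds to the common estimate of the spread, the fold changes were the same and their errors smaller. Then 4 genes passed as higher in CEN WT, where 9.56% of all genes did, namely vtg1 (6.28 ± 1.40 SE, adjusted p of 0.0102 in edgeR's test), vtg2 (5.98), vtg4 (4.71) and vtg7 (4.02). They also passed without CEN KO replicates 1 and 2, where 8.79% of all genes did. With only the 6 wild-type libraries, vtg1 and vtg7 passed as higher in CEN WT, with adjusted p-values of 0.0150 and 0.00944 in edgeR's test, and vtg5 passed as lower, at -1.56 with 0.0267, where 29.9% of all genes tested passed. The vtg2 and vtg4 genes fell under the filter on low counts there. In fits on more libraries both passed that filter through CEN libraries only. Their direction was therefore partly fixed in advance, and their calls as higher are no test of a difference. The vtg7 gene had 5 to 7 reads in cebpd WT and 13 to 196 in CEN WT. The vtg1 gene had 1, 16 and 5 reads in cebpd WT replicates 1 to 3 and 1604, 11 and 298 in CEN WT. Both genes thus passed the filter mainly through CEN libraries, also in the fits on more libraries. The direction of vtg1 and vtg7 was partly fixed too, and their calls as higher are no test of a difference. The difference rests on CEN WT replicates 1 and 3, since CEN WT replicate 2 lay within the cebpd range for vtg1, vtg2 and vtg4. With all 12 libraries, 3 of the 9 genes had an unadjusted p under 0.05 in edgeR's test (vtg1, esr1 and esr2b), against 38.0% of all genes, and DESeq2, which again gave no p for 5 vitellogenins, and limma-voom called none, where they called 29.7 and 25.2% of all genes. Groups without overlap were seen for vtg7, higher in CEN WT like 22.8% of all genes, and for vtg5 and esr1, lower like 23.6%. Experiment and line cannot be told apart in this comparison.

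**Figure D4:**
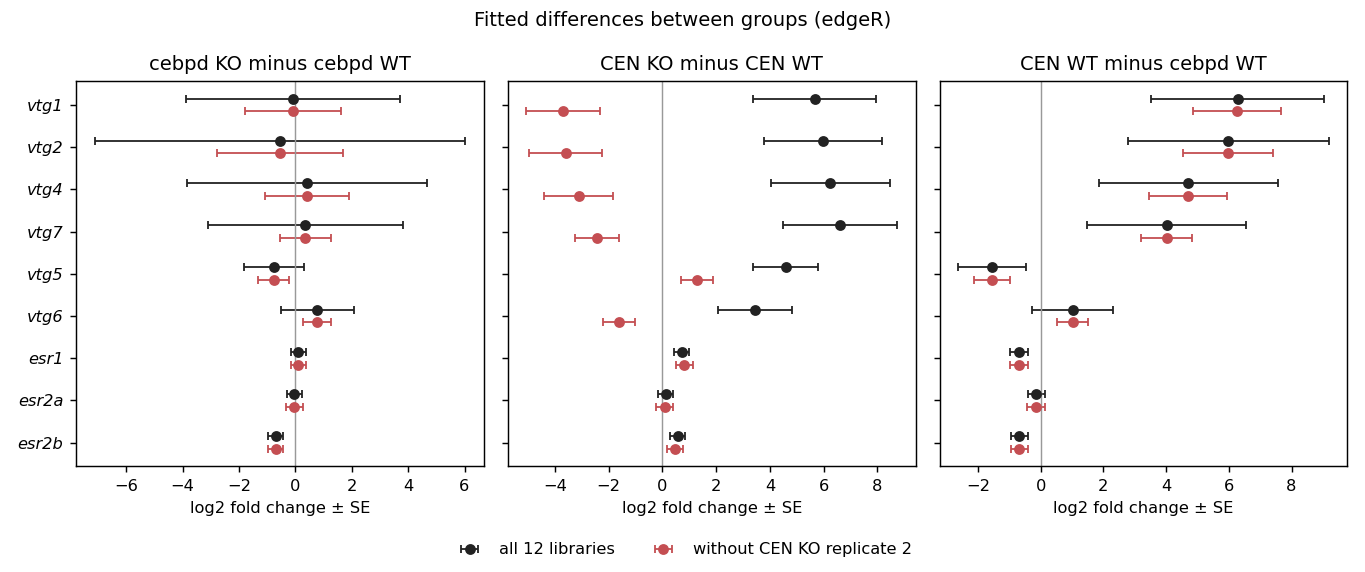
Log2 fold changes of the 9 genes with their SE from edgeR, for 3 comparisons, with all 12 libraries (black) and without CEN KO replicate 2 (red). In the middle panel vtg1, vtg2, vtg4, vtg6 and vtg7 change sign when that library is left out, while in the right panel the values stay and the error bars shorten, from 2.75 to 1.40 for vtg1.

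The estrogen receptor transcripts varied little beside the vitellogenins and did not share their order of libraries. Over the 12 libraries esr1 spanned 2.68-fold, esr2a 2.11-fold and esr2b 2.83-fold. The library of highest vitellogenin, CEN KO replicate 2, ranked 7th of 12 for esr1, 4th for esr2a and 3rd for esr2b. Of the reads of the 3 receptors, esr2b took 72.8 to 87.2% in each library, esr2a 9.74 to 20.9% and esr1 2.59 to 6.34%, as shares of reads without regard to length.

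Esr1 is the receptor that induces vitellogenin in fish liver, and its own gene is induced by estrogen there. The esr1 transcript stood at 11.02, 6.85 and 5.48 CPM in cebpd WT and at 8.28, 8.98 and 7.90 CPM in cebpd KO. It stood at 4.12, 5.28 and 5.03 CPM in CEN WT and at 6.38, 6.66 and 10.6 CPM in CEN KO. By group mean the order was cebpd KO (8.39 ± 0.551, SD, n = 3), CEN KO (7.88 ± 2.37), cebpd WT (7.78 ± 2.88) and CEN WT (4.81 ± 0.613 CPM). The first 3 groups did not differ beyond their spread. All CEN WT libraries lay below all CEN KO and all cebpd WT libraries, with a gap of only 0.20 CPM to the lowest of cebpd WT. Of all genes tested, 9.63% were higher in CEN KO without overlap, and 23.6% were lower in CEN WT than in cebpd WT.

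The esr2a transcript, of a beta-type receptor, was the steadiest of the 3. It was at 34.1, 21.8 and 17.0 CPM in cebpd WT, at 27.3, 24.4 and 19.6 CPM in cebpd KO, 16.1, 19.3 and 31.0 CPM in CEN WT, and 21.8, 25.4 and 25.0 CPM in CEN KO. Group means ran from 22.1 CPM ± 7.86 (SD, n = 3) in CEN WT to 24.3 CPM ± 8.83 (SD, n = 3) in cebpd WT, and no neighbours in that order differed beyond their spread.

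The esr2b transcript, of the other beta-type receptor, was at 182, 195 and 126 CPM in cebpd WT and at 95.1, 117 and 97.0 CPM in cebpd KO. It was at 69.0, 86.1 and 158 CPM in CEN WT and at 144, 176 and 143 CPM in CEN KO. The means were 168 CPM ± 36.95 (SD, n = 3) in cebpd WT, 154 CPM ± 18.7 in CEN KO, 104.5 CPM ± 47.45 in CEN WT and 103 CPM ± 12.2 in cebpd KO. Both neighbouring pairs at the ends of this order lay within their spread. All cebpd KO libraries lay below all cebpd WT libraries, as for 8.25% of all genes, whereas CEN KO and CEN WT overlapped through CEN WT replicate 3.

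**Figure D5:**
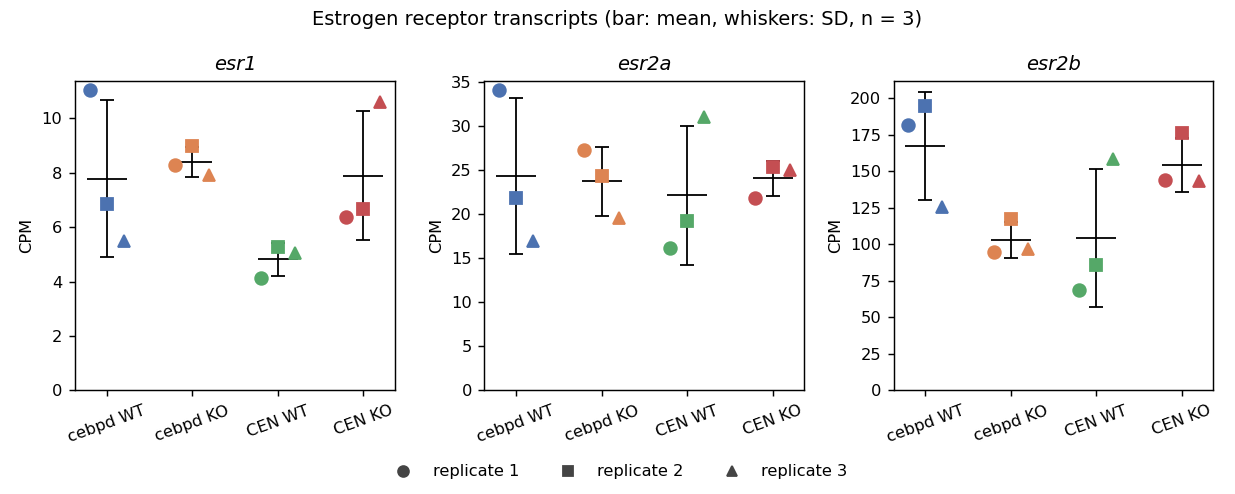
Levels of the 3 estrogen receptor transcripts in CPM on linear axes from 0, 1 symbol per library, with the group mean as a bar and the SD as whiskers (n = 3). The 3 esr2b values of cebpd KO, 95.1 to 117 CPM, lie below those of cebpd WT, 126 to 195 CPM, and esr1 is lowest in CEN WT at 4.12 to 5.28 CPM.

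None of the receptor differences passed the threshold in edgeR's quasi-likelihood test. The largest in the cebpd comparison was that of esr2b, at -0.70 ± 0.27 (SE) on the log2 scale (adjusted p of 0.274 in edgeR's test). For esr1 the value was 0.11 ± 0.27 (SE) and for esr2a -0.03 ± 0.28 (SE). In the CEN comparison the log2 fold changes were 0.71 ± 0.28 (SE) for esr1, 0.56 ± 0.27 (SE) for esr2b and 0.12 ± 0.28 (SE) for esr2a, with adjusted p-values of 0.415, 0.530 and 0.95 in edgeR's test. Leaving out 1 library at a time, the difference of esr2b ran from 0.34, without CEN WT replicate 1, to 0.99 with an adjusted p of 0.0994 in edgeR's test, without CEN WT replicate 3. That of esr1 ran from 0.44, without CEN KO replicate 3 and with an adjusted p of 1, to 0.84, without CEN KO replicate 1. Without CEN KO replicate 2 the values were 0.82 for esr1 and 0.46 for esr2b.

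The effect on esr2b had opposite signs in both knockouts. The difference of the effects, cebpd minus CEN, was -1.26 ± 0.38 (SE) on the log2 scale (adjusted p of 0.186 in edgeR's test), where 0.0422% of all genes passed and none of the 9 did. At an unadjusted p under 0.05 edgeR's test held esr2b and vtg5, against 12.9% of all genes. DESeq2 called the same pair, esr2b at an adjusted p of 0.0477 and vtg5 at 0.0413, among 2.91% of all genes. Limma-voom, with 0.0676% of all genes called, called neither. Neither tool was run without CEN KO replicate 2.

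Between the wild types, esr1 had a log2 fold change of -0.69 ± 0.28 (SE, CEN WT minus cebpd WT) and esr2b of -0.68 ± 0.27 (SE), with adjusted p-values of 0.0856 and 0.0831 in edgeR's test. Single libraries decided these. Without CEN WT replicate 3, esr2b passed at -1.11 with an adjusted p of 0.00637, where 18.0% of all genes passed. Without cebpd WT replicate 3, esr1 passed at -0.89 with an adjusted p of 0.0495, where 16.2% did. The comparisons of each knockout with its wild type and of the wild types with each other share the wild-type libraries.

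Genes that work with these receptors were described from 5 lists. In both knockout comparisons and in the difference of effects, edgeR's test called none of their members, nor any gene of the 6 tissue marker lists. At an unadjusted p under 0.05 it held, for cebpd KO and CEN KO in turn, 0 and 2 of 10 estrogen target genes, 3 and 5 of 26 genes of sex steroid synthesis, conversion and conjugation, 0 and 0 of 13 other steroid hormone receptors, 6 and 2 of 22 coregulators, and 2 and 0 of 10 genes of lipoprotein and yolk uptake, where 13.4 and 9.86% of all genes were held. For the difference of effects these counts were 1, 6, 2, 6 and 2, beside 12.9% of all genes. DESeq2 called 2 of the coregulators and 1 uptake gene in cebpd KO, where it called 3.40% of all genes, and 2 of the steroid metabolism genes in CEN KO, where it called 1.17%. In the difference of effects it called 4 steroid metabolism genes, 1 coregulator and 1 uptake gene, beside 2.91% of all genes, and limma-voom called no member of the 5 lists in these comparisons.

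Between the wild types 10 estrogen target genes were tested, of which 2 were called as higher and 1 as lower in CEN WT, beside 10.9 and 14.1% of all genes. The chemokine gene cxcl12a was at 4971, 4958 and 5032 CPM in cebpd WT and at 7457, 7781 and 6063 CPM in CEN WT. The difference was 0.51 ± 0.16 (SE) on the log2 scale (adjusted p of 0.0328 in edgeR's test). The retinoic acid receptor gene rarab was higher by 0.49 on the log2 scale. The progesterone receptor gene pgr, an estrogen target in mammals, was at 88.5, 107 and 64.5 CPM in cebpd WT and at 14.6, 29.5 and 64.5 CPM in CEN WT. The difference was -1.26 ± 0.40 (SE) on the log2 scale (adjusted p of 0.0369 in edgeR's test). Without CEN KO replicate 2, 1 target gene was called, as lower, and none as higher. The list's median log2 difference was -0.10, that of all genes 0.01.

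The nots gene encodes nothepsin, a liver protease of female fish that estrogen induces. It had 0 reads in all 12 libraries, CEN KO replicate 2 included. The membrane estrogen receptor gene gper1 stood at 0 to 0.607 CPM.

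Of the 26 genes of sex steroid metabolism, 1 was called as higher and 8 as lower in CEN WT, beside 10.9 and 14.1% of all genes, with a median log2 difference of -0.54. The catechol methyltransferase gene comtb, whose enzyme inactivates catechol estrogens, was higher at 45.2, 49.1 and 52.2 CPM against 14.2, 12.4 and 12.1 CPM in cebpd WT (log2 fold change 1.92, adjusted p of 3.44e-05 in edgeR's test). The sulfotransferase gene sult1st3 was lower at 118, 125 and 189.5 CPM against 358, 505 and 377 CPM. The hydroxysteroid dehydrogenase gene hsd17b12a was lower by 2.38 and the steroid reductase gene srd5a2a by 1.81 on the log2 scale. Of the 13 other receptors tested, 2 were called as higher and 1 as lower, beside the same shares. Higher were the membrane progestin receptor gene paqr5a (log2 fold change 2.38) and the glucocorticoid receptor gene nr3c1 (0.89). The lower one was pgr (-1.26), which is also among the estrogen targets. The androgen receptor gene ar was not called in any comparison and stood at 59.98 to 283 CPM.

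Of the 22 coregulators, 9 were called as lower in CEN WT and none as higher, beside 14.1 and 10.9% of all genes. Among them were the arginine methyltransferase gene prmt1, at 95.5, 123 and 95.4 CPM against 251.5, 231 and 255 CPM in cebpd WT, the prohibitin genes phb and phb2b, and the Hsp90 co-chaperone gene ptges3a, with log2 fold changes of -1.23, -1.05, -0.98 and -1.19. Of the 10 uptake genes, dab2, the adaptor of lipoprotein receptors, was called as higher (0.89), and ldlra, the low density lipoprotein receptor gene, and ctsla, a cathepsin gene, as lower (-1.73 and -0.69), which for 10 genes is near the shares of all genes.

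Interrenal markers, of the steroid-making cells, summed to 741 to 1070 CPM in cebpd WT, 448 to 821 CPM in cebpd KO, 269 to 684 CPM in CEN WT and 421 to 806 CPM in CEN KO. Of the 8 interrenal markers tested, cyp17a2 was called between the wild types, at a log2 fold change of -1.12, beside 25.0% of all genes, 6 had an unadjusted p under 0.05, beside 38.0%, and the list's median log2 difference was -0.89. In cebpd KO 7 of the 8 lay below 0, with a median of -0.98, and 5 had an unadjusted p under 0.05, beside 13.4% of all genes. In CEN KO 7 lay above 0, with a median of 0.47 and none at an unadjusted p under 0.05, and for the difference of effects 7 lay below 0, with a median of -1.49 and 5 at an unadjusted p under 0.05, beside 12.9%. The medians of all genes were -0.011 to 0.008 in these contrasts. DESeq2 called 3 of the 8 in cebpd KO, 4 between the wild types and 4 in the difference of effects, beside 3.40, 29.7 and 2.91% of all genes. The median of the interrenal list thus had the sign of the esr2b difference in both knockout comparisons and between the wild types. These contrasts share groups of libraries. For the difference of effects the sign largely follows from the knockout comparisons and adds nothing. Within groups the orders of single libraries were not always alike. In cebpd WT replicates 1 to 3 the sums were 811, 1070 and 741 CPM beside esr2b at 182, 195 and 126 CPM. In CEN WT they were 684, 402 and 269 CPM beside 69.0, 86.1 and 158 CPM, the reverse order. These sums, unlike the medians, were set largely by 1 gene. In the highest library it gave 850 of 1070 CPM in cebpd WT and 555 of 684 CPM in CEN WT. The part of interrenal cells in the esr2b and steroid metabolism values was not tested.

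The marker lists of other tissues also held called genes between the wild types, where 10.9% of all genes were called as higher and 14.1% as lower. In CEN WT 4 of 28 liver genes were called as higher, among them the liver fatty acid binding protein gene fabp10a (log2 fold change 1.79), the ceruloplasmin gene cp (1.68) and the apolipoprotein B gene apobb.1 (2.46), and 3 as lower, among them apoa2 (-3.46). The apoa2 transcript stood at 11.5, 14.9 and 20.8 CPM in CEN WT against 160, 171 and 189 CPM in cebpd WT. None of the 10 egg genes tested was called, whereas 1 of 10 testis and germ cell genes (piwil2, 1.61) and 6 of 18 kidney genes were. Called too were 2 of 11 pancreas and gut genes, the trypsin-family genes prss59.1 and prss59.2. Both were higher in CEN WT, under 2 CPM in all wild types and at 0 in cebpd WT replicates 2 and 3. They passed the filter on counts through CEN libraries only. The direction of both was therefore partly fixed in advance, and their calls are no test of a difference. With all 12 libraries, the 7 of 28 liver genes called are the 25.0% seen over all genes. Without CEN KO replicate 2, 6 of 28 liver genes were called as higher, beside 9.56% of all genes. As lower 4 were called in that fit, beside 1519 of 11840 genes. In CEN KO against CEN WT the median log2 difference of the liver list was 1.24, and without CEN KO replicate 2 it was -0.17, with no liver gene called either way in edgeR's test. All 10 egg genes tested had fitted differences above 0 in both knockout comparisons, also without CEN KO replicate 1, and 9 of 10 in the cebpd comparison without cebpd KO replicate 1. With all libraries, 5759 of the 11840 genes tested lay above 0 in the cebpd comparison and 5988 in the CEN comparison. The egg genes tested passed the filter on counts through the libraries where they had reads. Their signs were therefore partly fixed in advance and are no test of a difference. No median is given for the egg genes, since several were at 0 in whole groups.

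The genes whose levels followed vtg1 most closely over the 12 libraries were vtg2, vtg7 and vtg4, and then genes that include liver markers. Pearson's r of log2 CPM was 0.99 for vtg2, 0.98 for vtg7 and 0.97 for vtg4. After them came LOC796447 (0.95), the apolipoprotein gene apoa1b (0.94), the tyrosine breakdown enzyme gene hpda (0.92) and the antitrypsin-like genes serpina1l (0.92) and serpina1 (0.91). Without CEN KO replicate 2 these values were 0.98, 0.97 and 0.91 for the vitellogenins and 0.76 to 0.87 for the others. The apoa1b transcript stood at 314 CPM in CEN KO replicate 2, at 15.4, 5.28 and 20.4 CPM in CEN WT and at 2.36 to 8.84 CPM in the cebpd libraries. The serpina1 transcript was at 0 in all 3 cebpd WT libraries and at 3.24, 0.105 and 0.905 CPM in CEN WT. These coefficients are descriptions, and the 12 points share 4 groups and 1 scaling.

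Outside CEN KO replicate 2, vtg5 did not follow vtg1, and vtg6 followed it in part. Over the 11 remaining libraries r with vtg1 was -0.08 for vtg5 and 0.46 for vtg6, and r between vtg5 and vtg6 was -0.17. For vtg1 and the receptors, r over the same 11 libraries was -0.62 for esr1, -0.24 for esr2a and -0.29 for esr2b. The receptor genes were closest to genes of other kinds, esr1 to the phosphatase inhibitor gene arpp19a (r = 0.88 over 12 libraries), esr2a to arhgap12b (0.88) and esr2b to tmem184a (0.92), keap1a (0.91) and lrp3 (0.90). The keap1a transcript, whose protein restrains the oxidative stress factor Nrf2, stood at 129 to 155 CPM in cebpd KO and at 184 to 271 CPM in cebpd WT.

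In the gene table of the newer assembly GRCz12tu, vtg2, vtg4, vtg5, vtg6 and vtg7 lie on chromosome 22. Their order is vtg5, vtg4, vtg6, vtg7 and vtg2, with other genes between them. The symbol vtg1 is not in that gene table, so the place of vtg1 is not given. The receptor genes esr1 and esr2a lie on chromosome 20 and esr2b on chromosome 13. Genes on either side of the vitellogenin group did not share its level in CEN KO replicate 2. The lysophosphatidic acid receptor gene lpar3 stood at 12.5 CPM there against 1.86 to 9.70 CPM in the other 11 libraries, wdr47b at 34.1 against 9.74 to 27.6 CPM, and mcoln2 at 53.8 against 31.1 to 57.6 CPM. LOC794757, at 0.579 CPM, lay within the range of the other libraries. On the other side the genes with reads lay further off, at places 19 to 26 counted from vtg5, where vtg2 has place 8. Of these, dnal4b at 1.97 CPM, polr3f at 4.57 CPM and dzank1 at 1.97 CPM were lower than in any other library. The levels of nptxrb and csrp2bp lay within the range of the other libraries.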

How the data were processed

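Per the labels, total RNA of whole kidneys was sequenced in 12 libraries. The authors deposited raw read counts per gene symbol, 1 table per library and not normalized. Genome build danRer10, HTSeq, TopHat2 2.1.1 and Trim Galore 0.6.4 are named in the submitters' processing notes. Annotation, strand setting and the handling of reads shared by paralogs are not given there or in the labels. Reads of overlapping antisense genes therefore cannot be told apart. Besides 14781 genes, each table had 5 summary lines, which entered neither library sizes nor tests. Of all reads in a table, 32.1 to 38.5% fell in no gene and 1.32 to 3.99% were ambiguous between genes. No reads were listed as aligned in several places.

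The analysis used edgeR 4.0.16 in R 4.3.3. The filter filterByExpr (minimum count 10) kept 11840 genes, among them all 9 genes described. TMM scaling gave factors of 0.835 to 1.10. The quasi-likelihood test had a term for each of 4 groups over all 12 libraries and 8 residual degrees of freedom. Each knockout was compared with its own wild types, the resulting effects with each other (cebpd minus CEN), and the CEN wild types with those of cebpd. P-values were adjusted by Benjamini and Hochberg's method across the genes tested (threshold 0.05). SEs were taken as the log2 fold change over the root of F, and the common biological coefficient of variation was 25.3%. Intervals of shares and ratios of reads are exact (Clopper-Pearson) at 95%. Correlations used log2 CPM with a prior count of 2. The fits were tested on simulated data with known changes.

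The 9 genes and 11 gene lists (estrogen targets, steroid metabolism, other steroid receptors, coregulators, yolk uptake, and liver, ovary, testis, interrenal, kidney and pancreas or gut markers) were chosen with earlier results of these data known. Besides the 9 genes, the text names up to 4 genes of lowest p per list and contrast among those past the threshold, the 2 of highest mean level where a list had none, and the genes most like vtg1 and each receptor in level. The liver genes fga, ambp and hpx, the genes ar, gper1 and nots, and the ranges of neighbours were chosen after their values were seen.

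Alternatives were DESeq2 1.42.0 size factors and Wald test, TMM without the 20 most abundant genes, keeping every gene, keeping genes of 10 CPM or more in 3 libraries, limma-voom (limma 3.58.1), edgeR with robust estimation, the replicate number as a block, only the 6 libraries compared, and leaving out each library. Leaving out CEN KO replicates 1 and 2 together was chosen after seeing the data. Libraries were left out in edgeR's test only. Gene order and chromosomes came from a RefSeq gene table of GRCz12tu, whose coordinates are of another build and therefore not printed.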

Additional observations from a re-analysis of the deposited data

How the results depend on the processing

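Over the alternatives, 741 values were recomputed for 36 results (9 genes in 4 contrasts), of which 686 kept their sign and their side of the threshold, 16 passed it and 39 turned sign. No gene was called in the fit on all 12 libraries, so none could be lost. The number of the 9 genes past the threshold was 0 in every contrast of that fit. With DESeq2 it became 1 for CEN KO against CEN WT, beside 1.17% of all genes. For the difference of effects it became 2 with DESeq2, beside 2.91%. Between the wild types it became 3 with only the 6 libraries compared, where 29.9% of all genes tested passed. There vtg2 and vtg4 were not tested. When 1 library was left out it was 0 to 4 between the wild types, where 1670 to 4063 of 11840 genes passed. Among these, the calls of vtg1, vtg2, vtg4 and vtg7 are no test of a difference, since their direction was partly fixed in advance. DESeq2 gave no p for 20 of 36 values.

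Values that turned sign with limma-voom were small beside their errors, at 0.011 for esr2a, 0.59 for vtg1 and 0.33 for vtg2 in the cebpd comparison and 0.17 for vtg6 in the difference of effects. Without CEN KO replicates 1 and 2 the CEN knockout differences were -3.37 for vtg1, -4.04 for vtg2, -2.63 for vtg4, -2.30 for vtg6 and -2.44 for vtg7, and the differences of effects 3.29, 3.48, 3.05, 3.07 and 2.79. Leaving out 1 library gave, in the cebpd comparison, ranges of -0.092 to 0.44 for esr1, -0.24 to 0.29 for esr2a, -0.63 to 1.23 for vtg1, -1.15 to 3.60 for vtg2, -0.15 to 1.01 for vtg4 and -0.014 to 0.58 for vtg7. In the CEN comparison they were -0.065 to 0.44 for esr2a, -3.69 to 7.69 for vtg1, -3.60 to 7.84 for vtg2, -3.12 to 8.20 for vtg4, -1.61 to 4.03 for vtg6 and -2.43 to 7.36 for vtg7. Between the wild types esr2a ran from -0.46 to 0.20. For the difference of effects they were -0.48 to 0.17 for esr2a, -7.77 to 3.61 for vtg1, -8.40 to 3.04 for vtg2, -7.79 to 3.54 for vtg4, -3.26 to 2.38 for vtg6 and -7.01 to 2.78 for vtg7.

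With 3 libraries per group, whether replicate numbers pair the libraries could not be decided. Deviations of same-numbered libraries from their group means correlated at 0.30, -0.01 and 0.37 in the cebpd experiment. In the CEN experiment they correlated at 0.20, -0.02 and 0.16. Differently numbered libraries ran from -0.444 to 0.335 and from -0.243 to 0.054 in turn. In both experiments the third wild type correlated best with the knockout of its own number. The first wild type did so for CEN, whereas that of cebpd correlated best with cebpd KO replicate 2 (0.335 against 0.302). The second wild types correlated best with the third knockouts. With the replicate number as a block no gene of the 9 was called, the block turned vtg1 to 0.20 in the cebpd comparison, vtg2 to -0.65 in the CEN comparison and vtg1 to 0.013 in the difference of effects, and the genes called over the whole table were 6, 5, 3084 and 0 in the cebpd, CEN, wild-type and difference contrasts, against 10, 1, 2961 and 5 without it.

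Over all genes tested, the number past the threshold ran over the alternatives from 1 to 402 for cebpd KO (10 in the fit on all libraries), from 1 to 138 for CEN KO (1), from 1670 to 4063 between the wild types (2961) and from 0 to 344 for the difference of effects (5), with the highest of the knockout counts from DESeq2. At these depths, vtg1, vtg2, vtg4 and vtg7 rested on 0 to 16 reads in each cebpd library, and the SEs of their cebpd differences fell from 3.47 to 6.58 with all libraries to 0.915 to 2.24 without CEN KO replicate 2.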
